A study of Mus musculus with 12 samples.

Results

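The 9 genes Pax6, Etv1, Nfia, Nfib, Nfic, Nfix, Insm1, Mycn and Rbfox3 were followed in the cerebellum of mice at postnatal day 14. They were taken by name as factors of granule cell differentiation, found by symbol in the deposited table of differences and joined by Ensembl identifier to the deposited counts. All 9 were among the 55385 listed genes, and all 9 were among the 18091 genes with enough counts to be tested. Rbfox3 goes against the shared description as transcription factors, since it encodes NeuN, an RNA-binding regulator of splicing. Mycn is known for progenitor growth and not for maturation.

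The RNA came from whole cerebellum of C57BL/6 mice, 3 wild-type (WT) libraries and 3 libraries from conditional knockouts labelled EED-/-. The Eed protein belongs to the core of Polycomb repressive complex 2, which places the repressive mark H3K27me3. The labels give neither the Cre driver, the cells in which it acts nor whether each library is a separate animal, so p-values measure the spread between these libraries. The 6 ChIP-seq samples of the same genotypes (input, H3K27me3 and H3K27ac) were not analysed here.

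Granule cells are the small glutamatergic neurons of the cerebellar cortex. Their progenitors divide in the external granular layer under sonic hedgehog, with Mycn as a growth-promoting target, then leave the cycle, migrate inwards past the Purkinje cells and mature in the internal granular layer. Pax6 acts in migration and differentiation, Insm1 is a zinc-finger transcriptional repressor that promotes the passage from progenitor to neuron, the NFI proteins direct axon, dendrite and synapse genes, and Etv1 is an ETS factor tied to the late, activity-dependent steps. NeuN is a standard mark of mature neurons and is strong in granule cells.

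The libraries held 19621672 to 20366041 rounded counts. Eed was lower in every EED-/- library, 9.31 to 11.6 CPM (the gene's counts scaled to the library's total, with TMM factors) against 20.1 to 26.6 CPM in WT. WT replicate 1 stood apart: mitochondrial transcripts took 3.21% of its counts against 6.37% and 5.22% in WT replicates 2 and 3. The EED-/- libraries had 7.16%, 6.45% and 8.04%, so the mitochondrial share was higher in every EED-/- library than in every WT library, and its part in the members' changes was not tested. Of the WT libraries it was also the highest for Pax6, Nfic, Nfix, Insm1, Mycn and Rbfox3, and the lowest for Nfia and Nfib.

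Of the 9 genes 8 fell in EED-/- cerebellum, 0 rose, and Mycn was not called. A gene was called at an adjusted p under 0.05 from edgeR's quasi-likelihood test, Benjamini-Hochberg adjusted across the 18091 tested genes. This threshold called 25.8% of all tested genes, 14.1% as lower and 11.7% as higher. The balance turned with the scaling: 2544 genes were lower and 2125 higher with TMM, 1786 and 2828 with upper-quartile scaling, and 1865 and 2641 with library size alone. The number of members called lower was 8 under each of these scalings. Etv1, Pax6 and Rbfox3 fell the most, by 6.82-fold, 5.31-fold and 4.68-fold. The 4 NFI genes fell 1.59-fold to 3.09-fold and Insm1 fell 2.03-fold. The same 8 genes had no overlap in CPM between genotypes, a pattern found in 43.9% of all tested genes. In whole tissue, fewer cells of a type and less RNA per cell cannot be told apart. The authors' deposited table also called 8 of the 9 at an adjusted p under 0.05, where 12.7% of its genes with a p-value were called, and gave Mycn a log2 fold change of -0.16 and an adjusted p-value of 0.742.

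**Figure D1:**
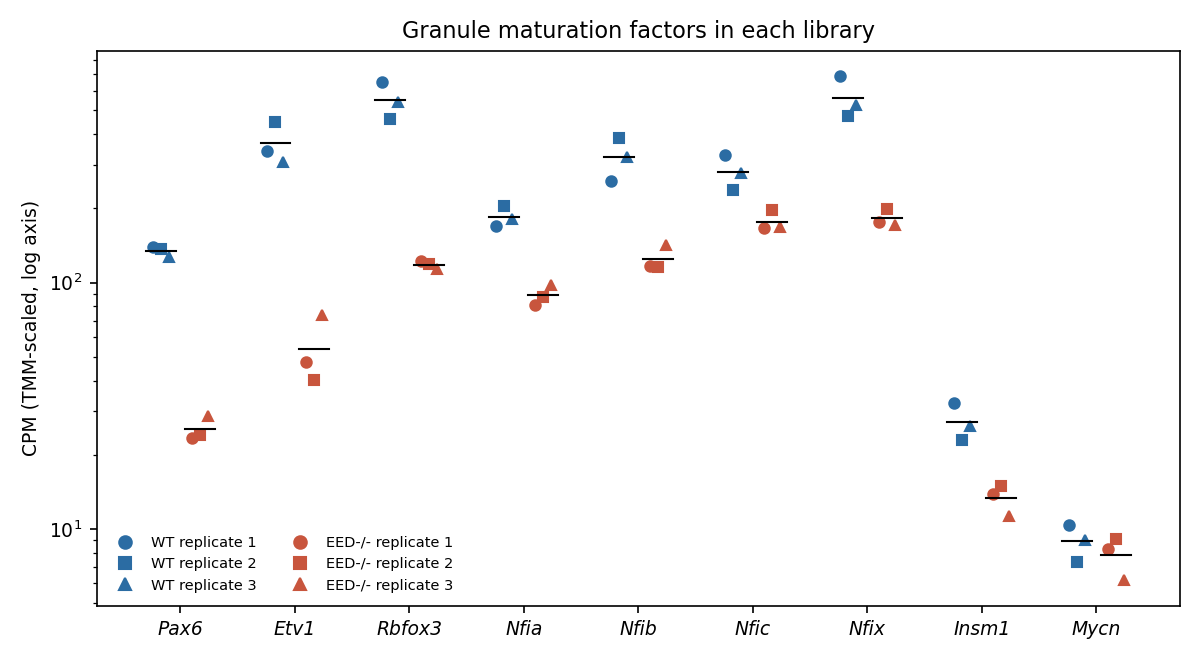
CPM of the 9 genes (log axis) in each of 3 WT (blue) and 3 EED-/- (red) libraries; marker shape gives the replicate number and black lines the group means. The genotypes are separate for 8 genes and overlap for Mycn, where WT libraries lie between 7.3 and 10.4 CPM and EED-/- libraries between 6.17 and 9.12 CPM.

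Pax6 encodes a paired-box and homeodomain transcription factor of the granule lineage. The gene (ENSMUSG00000027168.21) lies on the plus strand of chromosome 2 at 105668900 to 105697364 in GRCm38, and its annotation merges into 16 exons. WT replicates 1, 2 and 3 held 139, 137 and 127 CPM of Pax6, against 23.4, 23.9 and 28.6 CPM for the EED-/- replicates in the same order. Every EED-/- library lay far below every WT library, and the spread within each genotype was small. With means of 134 ± 6.66 and 25.3 ± 2.84 CPM (SD, n = 3), the log2 fold change was -2.41 (SE 0.123, adjusted p = 3.66e-05 by edgeR). By p-value Pax6 ranked 7 among the 18091 tested genes.

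Etv1 encodes an ETS factor of the PEA3 group. The gene (ENSMUSG00000004151.17) lies on the plus strand of chromosome 12 at 38779380 to 38870484. Its level was 343, 450 and 308 CPM in the WT libraries and 47.8, 40.1 and 73.7 CPM in the EED-/- libraries, in replicate order. EED-/- replicate 3 kept the highest level among the knockouts, still far below the lowest WT library. The log2 fold change of -2.77 (SE 0.251, adjusted p = 0.000295 by edgeR) ranked 78 from the lowest of all tested genes.

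Rbfox3 (ENSMUSG00000025576.17) spans 118489762 to 118911597 of chromosome 11, minus strand. Its level was 655, 461 and 542 CPM in the WT libraries and 122, 119 and 113 CPM in the EED-/- libraries. The EED-/- libraries were close to each other while the WT libraries spread widely. With means of 553 ± 97.3 and 118 ± 4.53 CPM (SD, n = 3), the log2 fold change was -2.23 (SE 0.146, adjusted p = 5.5e-05 by edgeR).

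The 250 bases before the annotated starts of these genes are shown for the members with the largest falls and, as the contrast, for Mycn, which was not called. They are RefSeq sequences of GRCm38.p6, read 5′ to 3′ on the gene's own strand. Capitals mark matches to the short NFI motif TTGGC or the ETS motif GGAAGT on either strand, where the reverse strands read GCCAA and ACTTCC. RefSeq gave 12 such windows for 7 of the 9 genes, with no entry for Nfib and Insm1. Pax6, Etv1 and Nfix have more than 1 such window, and those of Nfix, some with TTGGC, are not shown. The Rbfox3 window lies inside the gene span given above, which on the minus strand begins at 118911597. The annotation used for that span lists 10 Rbfox3 transcripts, and this window is not before the outermost start. The downstream Pax6 window and the Etv1 window shown also lie inside their gene spans. The Mycn window overlaps the start of the Mycn span.
Pax6, upstream start, chr2:105668646-105668895, plus strand: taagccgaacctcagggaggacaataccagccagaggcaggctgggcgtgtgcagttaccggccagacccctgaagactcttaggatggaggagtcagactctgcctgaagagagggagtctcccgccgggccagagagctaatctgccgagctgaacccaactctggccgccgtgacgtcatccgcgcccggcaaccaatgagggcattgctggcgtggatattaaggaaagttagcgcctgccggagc
Pax6, downstream start, chr2:105682213-105682462, plus strand: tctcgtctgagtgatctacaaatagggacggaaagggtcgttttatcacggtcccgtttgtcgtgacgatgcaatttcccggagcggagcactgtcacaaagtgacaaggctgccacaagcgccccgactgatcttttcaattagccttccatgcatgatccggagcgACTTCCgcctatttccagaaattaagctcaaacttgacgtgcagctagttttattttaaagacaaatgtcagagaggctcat
Etv1, downstream start, chr12:38783461-38783710, plus strand: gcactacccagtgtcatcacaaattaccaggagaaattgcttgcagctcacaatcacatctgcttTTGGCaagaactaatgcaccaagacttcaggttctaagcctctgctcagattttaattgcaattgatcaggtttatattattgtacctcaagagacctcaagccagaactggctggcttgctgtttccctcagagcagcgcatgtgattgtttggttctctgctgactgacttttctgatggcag
Rbfox3, chr11:118761042-118761291, minus strand: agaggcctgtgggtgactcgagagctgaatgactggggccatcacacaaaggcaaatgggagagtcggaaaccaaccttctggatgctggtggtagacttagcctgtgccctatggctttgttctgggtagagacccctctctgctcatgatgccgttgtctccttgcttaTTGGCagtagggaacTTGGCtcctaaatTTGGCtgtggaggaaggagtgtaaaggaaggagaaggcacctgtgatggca
Mycn, chr12:12941837-12942086, minus strand: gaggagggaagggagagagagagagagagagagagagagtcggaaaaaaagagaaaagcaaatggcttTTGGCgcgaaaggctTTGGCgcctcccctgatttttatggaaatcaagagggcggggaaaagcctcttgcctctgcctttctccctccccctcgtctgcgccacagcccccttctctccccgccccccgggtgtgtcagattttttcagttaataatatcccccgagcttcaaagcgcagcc

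Rbfox3 held 3 matches to TTGGC, Mycn held 2 and the downstream Etv1 window held 1, while the upstream Etv1 window, not shown, held none of either motif. The downstream Pax6 window held 1 match to the ETS motif and the upstream Pax6 window held none of either. Among the 12 windows of the members 5 held TTGGC or its reverse, against 41.5% of 32851 RefSeq windows of the same length. The ETS motif was in 1 of the 12, against 19.7% of all windows. The 2 motifs can share at most 1 letter, and none of the 5 windows shown holds both. A match is a description of letters and not of binding. Mycn and Rbfox3 both held TTGGC and differed in their call, and whether either motif bears on the calls was not tested.

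The 4 NFI genes all fell, by different amounts. Nfix encodes the family member with the highest level per length in WT cerebellum. The gene (ENSMUSG00000001911.16; chromosome 8, 84699876 to 84800344, minus strand) had 690, 473 and 525 CPM in the WT libraries and 176, 199 and 172 CPM in the EED-/- libraries, with no overlap. Its log2 fold change was -1.63 (SE 0.158, adjusted p = 0.000322 by edgeR). Nfib (ENSMUSG00000008575.17; chromosome 4, 82290173 to 82705750, minus strand) had 259, 386 and 323 CPM in WT and 116, 116 and 142 CPM in EED-/- libraries. Its log2 fold change was -1.37 (SE 0.165, adjusted p = 0.000855 by edgeR). Both genotypes of both genes were separate, and WT replicate 1 was the highest WT library for Nfix and the lowest for Nfib.

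Nfia (ENSMUSG00000028565.18; chromosome 4, 97772734 to 98118874, plus strand) had 169, 204 and 181 CPM in WT and 81.3, 87.5 and 97.6 CPM in EED-/- libraries. The 2 groups were tight and separate, and the log2 fold change was -1.06 (SE 0.122, adjusted p = 0.000709 by edgeR). Nfic (ENSMUSG00000055053.18; chromosome 10, 81396186 to 81455635, minus strand) had 330, 237 and 278 CPM in WT and 167, 197 and 167 CPM in EED-/- libraries. The genotypes were separate, with the lowest WT library near the highest EED-/- library. The log2 fold change was -0.67 (SE 0.144, adjusted p = 0.0109 by edgeR), the smallest fall among the called members. Its call was lost without EED-/- replicate 1 (-0.63, adjusted p = 0.0611) and without EED-/- replicate 3 (-0.58, adjusted p = 0.0531).

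The question of whether the NFI genes changed unequally was put to their log2 CPM differences within each library, over 6 pairs. Nfic minus Nfix was -1.07, -0.99 and -0.92 in WT replicates 1, 2 and 3, and -0.08, -0.02 and -0.03 in the EED-/- replicates. Every EED-/- library lay above every WT library, with little spread in either genotype. The difference rose by 0.95 (exact two-sided permutation p = 0.1, 0.2 adjusted over the 6 pairs). A p of 0.1 is the smallest that 3 against 3 libraries allow, so none of these exact tests can pass 0.05. Nfia minus Nfix rose by 0.56 and Nfia minus Nfib by 0.30, again with no overlap between genotypes. Without WT replicate 1, Nfia minus Nfix rose by 0.34 (exact permutation p = 0.2). Without any 1 of the EED-/- libraries, Nfia minus Nfix and Nfia minus Nfib each had exact permutation p = 0.2. The remaining 3 pairs overlapped: Nfib minus Nfic and Nfia minus Nfic had exact permutation p = 0.2 and Nfib minus Nfix p = 0.6.

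Per kilobase of merged exon, the summed NFI level was 158 ± 16.7 CPM per kb in WT and 68 ± 4.22 CPM per kb in EED-/- libraries (SD, n = 3), a ratio of 2.32. Nfix made up 53.2%, 44.5% and 47.1% of that sum in the WT libraries and 37.2%, 37.3% and 34.8% in the EED-/- libraries. Nfic made up 28.2%, 24.8% and 27.7% in WT and 39.1%, 40.9% and 37.7% in EED-/- libraries. Neither share overlapped between genotypes (exact two-sided permutation p = 0.1, 0.2 adjusted over 4 shares). By merged exon length Nfic was the largest share in every EED-/- library and Nfix in every WT library. By longest transcript Nfix had the highest mean level in both genotypes, at 33.3 CPM per kb against 28.4 for Nfic in EED-/- libraries. The shares of Nfia and Nfib overlapped, at 8.81% to 13.4% and 9.8% to 17.8% over all 6 libraries. With the longest transcript as the length, the share of Nfic rose by 11.3 percentage points and that of Nfix fell by 11.1. Whether reads were shared between NFI genes cannot be seen in gene-level counts.

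**Figure D2:**
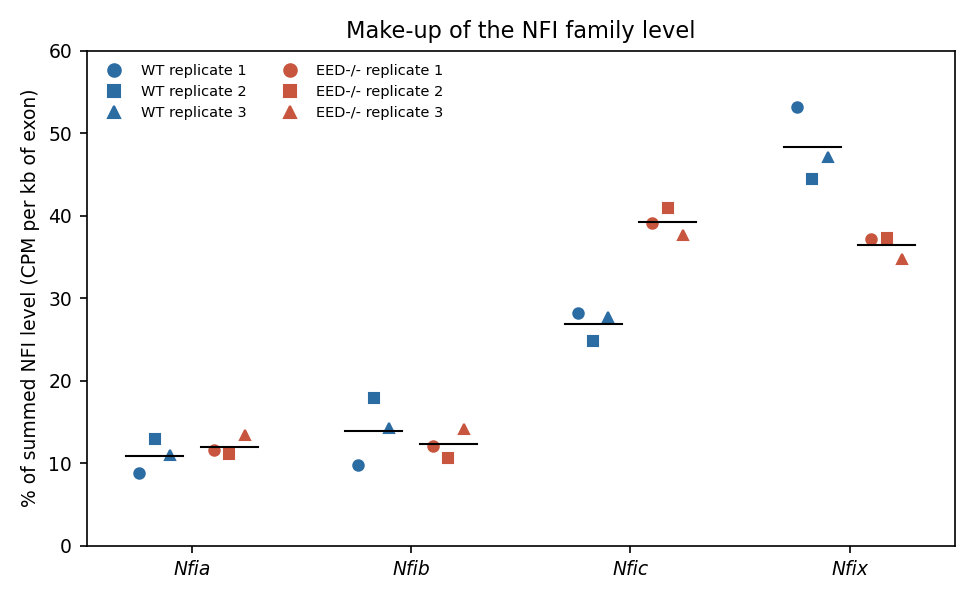
Percent of the summed NFI level (CPM per kb of merged exon) held by each NFI gene in each library, WT in blue and EED-/- in red, with group means as black lines. Nfic lies at 24.8% to 28.2% in WT and 37.7% to 40.9% in EED-/- libraries, Nfix at 44.5% to 53.2% and 34.8% to 37.3%.

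Insm1 is a single-exon gene (ENSMUSG00000068154.5) on the plus strand of chromosome 2 at 146221921 to 146225020. Its level was 32.3, 22.9 and 26.1 CPM in WT and 13.8, 14.9 and 11.3 CPM in EED-/- libraries. The genotypes did not overlap, and the log2 fold change was -1.02 (SE 0.169, adjusted p = 0.00344 by edgeR). Mycn (ENSMUSG00000037169.15; chromosome 12, 12936093 to 12941914, minus strand) had 10.4, 7.3 and 8.99 CPM in WT and 8.24, 9.12 and 6.17 CPM in EED-/- libraries. The libraries of both genotypes were mixed. The log2 fold change of -0.18 had a 95% interval of -0.64 to 0.28 (adjusted p = 0.553 by edgeR), and changes within those bounds are not excluded by these libraries. Mycn rested on 126 to 202 counts per library.

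Compared per kilobase of merged exon, the order of levels in WT was Rbfox3, Nfix, Nfic, Etv1, Nfib, Nfia, Pax6, Insm1 and Mycn. Rbfox3 stood at 95 ± 16.7 CPM per kb, Nfix at 76.6 ± 15.4, Nfic at 42.5 ± 6.96, Etv1 at 27.6 ± 5.54 and Mycn at 2.7 ± 0.466 (SD, n = 3). The ranges of Rbfox3 and Nfix overlapped, as did those of Etv1 and Nfib, of Nfib and Nfia, and of no other neighbours in that order. In EED-/- libraries Nfic came highest at 26.7 ± 2.6 CPM per kb, followed by Nfix at 24.8 ± 2.02 and Rbfox3 at 20.3 ± 0.778. Nfic and Nfix overlapped there. Etv1 stood at 4.05 ± 1.32 CPM per kb, overlapping with Insm1 at 4.3 ± 0.605, and Pax6 at 2.17 ± 0.243 overlapped with Mycn at 2.38 ± 0.461. With the longest transcript as the length, Etv1 came above Nfic and Pax6 above Nfia in WT. The EED-/- means by that length were 37.5 CPM per kb for Rbfox3, 33.3 for Nfix and 28.4 for Nfic, the reverse of the order by merged exon.

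The members were also set against a list of 12 granule neuron markers within each library. All 12 markers fell, with a median log2 change of -2.81, and their summed level was 5151 to 6824 CPM in WT and 688 to 922 CPM in EED-/- libraries. The median over all tested genes was -0.03. The member's log2 CPM minus the mean log2 CPM of the markers rose by 0.07 for Etv1 and 0.46 for Pax6. It rose by 0.65 for Rbfox3, 1.25 for Nfix, 1.51 for Nfib, 1.81 for Nfia, 1.85 for Insm1, 2.2 for Nfic and 2.68 for Mycn. The genotypes overlapped for Etv1 (exact two-sided permutation p = 0.7) and were separate for the other 8 (exact permutation p = 0.1 each, 0.113 adjusted over 9). Since all 12 markers fell, a gene that did not change also rises on this scale. Separation here therefore does not show that the member itself rose. With the median of the markers as the reference, the differences of Pax6 and Etv1 turned to -0.06 and -0.45 (exact permutation p = 0.4 and 0.2). With the same reference Rbfox3 dropped to 0.13 (exact permutation p = 0.5), Nfib to 0.99 and Nfix to 0.73. The other 4 members ranged from 1.29 to 2.16, and these 4, Nfib and Nfix had exact permutation p = 0.1. The difference of Etv1 was also negative without WT replicate 1 (-0.07) or EED-/- replicate 3 (-0.05).

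**Figure D3:**
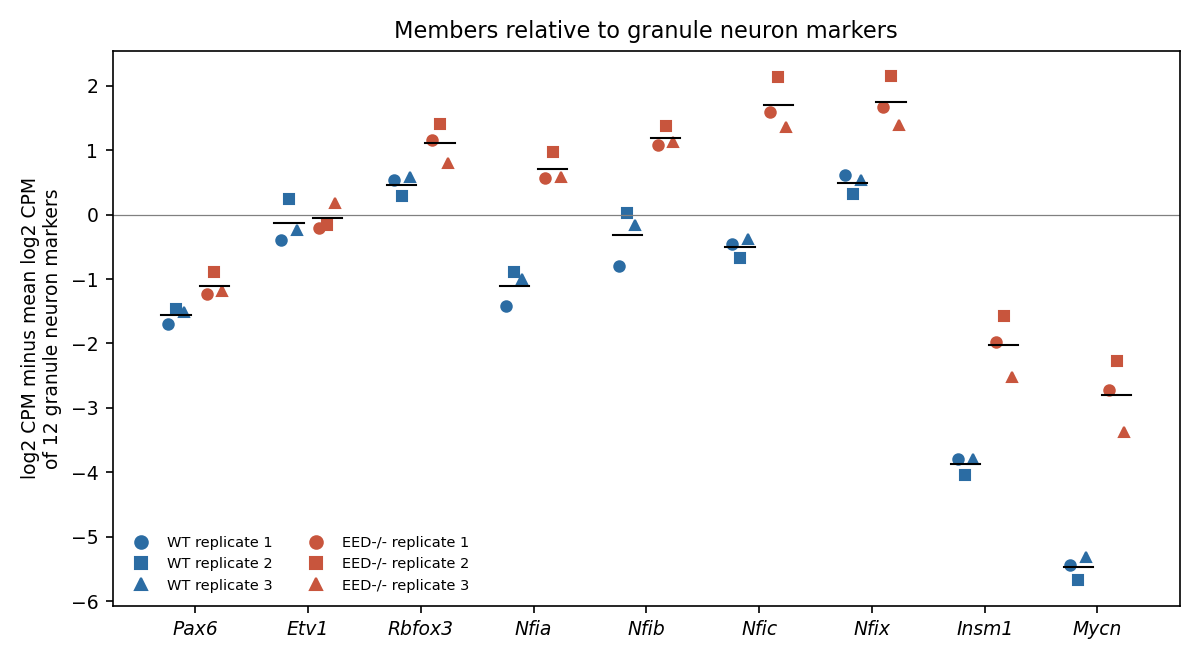
Each member's log2 CPM minus the mean log2 CPM of 12 granule neuron markers, per library, WT in blue and EED-/- in red, with group means as black lines. The difference between genotypes grows from 0.07 for Etv1 to 2.68 for Mycn, and the genotypes overlap for Etv1 alone. All 12 markers were lower in EED-/- libraries, which raises every difference.

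Against 12 pan-neuronal genes the picture was of falls. Of these genes 2 were called lower, 2 higher and 8 not, with a median log2 change of -0.19 and summed levels of 6422 to 6908 CPM in WT and 5910 to 6442 CPM in EED-/- libraries. NeuN is often read as a mark of neurons in general. Rbfox3 minus the mean log2 CPM of the pan-neuronal genes was 0.5, -0.02 and 0.23 in the WT libraries and -1.9, -1.83 and -1.97 in the EED-/- libraries, a fall by 2.14 (exact two-sided permutation p = 0.1, 0.113 adjusted over 9). Etv1 fell by 2.72 and Pax6 by 2.33 on the same scale, the NFI genes by 0.59 to 1.54 and Insm1 by 0.94, with no overlap for these 7. Mycn differed by -0.11 and overlapped (exact permutation p = 0.6). These comparisons were added after the values were seen.

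Family relatives of the members did not all move with them. Of 15 relatives 12 were tested, 5 rose and 2 fell, with a median log2 change of 0.08. With any 1 library left out, 4 relatives were called higher. Etv4 and Etv5, the other PEA3 factors, had log2 fold changes of 0.04 and -0.33 and were not called (adjusted p = 0.896 and 0.0957 by edgeR). Etv1 minus Etv4 fell by 2.82 and Etv1 minus Etv5 by 2.48 in log2 CPM, both without overlap (exact two-sided permutation p = 0.1, also adjusted over the 6 pairs of this kind). Myc, the paralogue of Mycn, rose 2.12-fold, from 3.45 ± 1.0 to 7.31 ± 0.913 CPM (adjusted p = 0.012 by edgeR), and Mycl was not called (0.12, adjusted p = 0.539). The family pairs were also added after the values were seen. Mycn minus Myc fell by 1.28 and Mycn minus Mycl by 0.30, without overlap (exact permutation p = 0.1 each). For Mycn minus Mycl the gap was narrow, at -1.61 in WT replicate 2 against -1.63 in EED-/- replicate 2. Its exact permutation p was 0.2 without any 1 of the WT libraries or without EED-/- replicate 3.

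The splicing regulators Rbfox1 and Rbfox2 were called lower, at 1.37-fold and 1.39-fold (adjusted p = 0.0207 and 0.0196 by edgeR). Both calls were lost with upper-quartile scaling and without EED-/- replicate 1 or EED-/- replicate 2. 1 of them was called without WT replicate 3 or EED-/- replicate 3. Rbfox3 minus Rbfox1 and Rbfox3 minus Rbfox2 each fell by 1.75 in log2 CPM, without overlap (exact two-sided permutation p = 0.1). Among the Pax genes 4 rose: Pax7 from 2.01 ± 0.311 to 9.21 ± 1.01 CPM, Pax5 from 2.44 ± 1.33 to 10.5 ± 2.49 CPM, Pax8 from 1.62 ± 0.258 to 2.98 ± 0.55 CPM, and Pax1. Pax1 had 3 counts over the WT libraries, all in replicate 3, and 78 over the EED-/- libraries, a ratio of 25.5 with a 95% counting interval of 8.41 to 126. Pax2 and Pax3 had log2 fold changes of -0.49 each and were not called. Pax4, Pax9 and Insm2 were not tested. Pax9 had 1 count over the WT libraries and 23 over the EED-/- libraries, a ratio of 22.6 with a 95% counting interval of 3.66 to 929. Pax4 had 3 and 1 counts, and Insm2 had 16 and 26.

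Other transcription factors of the granule lineage mostly fell with the members. Of 21 listed 20 were tested, 14 fell, 2 rose and 4 were not called, with a median log2 change of -1.29. The neurogenic factors Neurod1 and Neurod2 fell 8.73-fold and 6.82-fold, and the zinc-finger factor Zic1 fell 5.32-fold. Zic1 is also the gene whose pattern over the 6 libraries was most like that of Pax6, with members, pseudogenes and gene-model names left out. The homeobox genes Meis2 and En1 rose 2.27-fold and 2.13-fold, while En2 fell 6.26-fold. Sox4, Sox11, Mef2a and Lmx1a had log2 fold changes of 0.02, -0.36, -0.48 and 0.40 and were not called. Atoh1, the founding factor of the lineage, had 18 counts over the WT and 30 over the EED-/- libraries and was not tested.

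**Figure D4:**
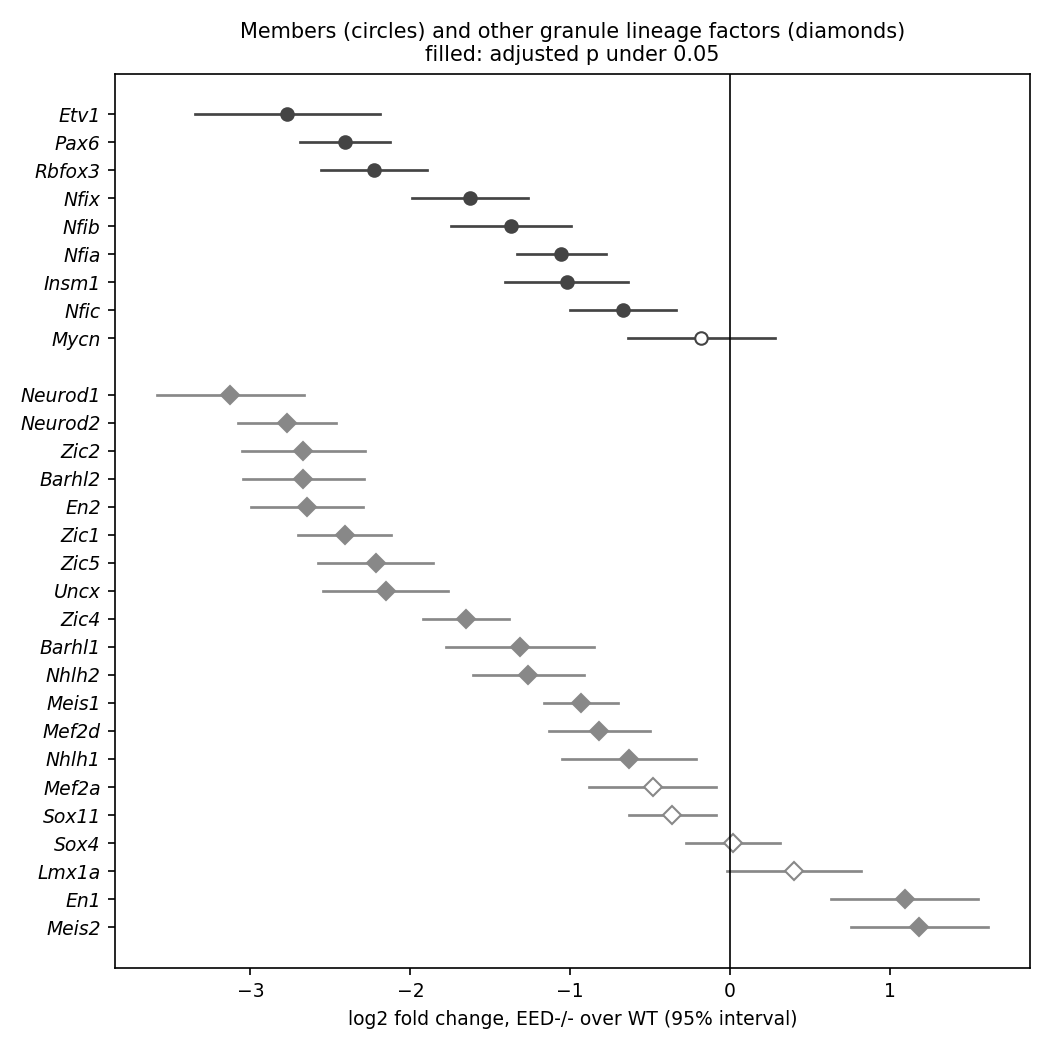
Log2 fold change of EED-/- over WT with its 95% interval for the 9 members (circles, top) and 20 other granule lineage factors (diamonds, below); filled symbols passed an adjusted p under 0.05. Among the members Etv1 is lowest at -2.77 and Mycn, the open circle, lies at -0.18; among the other factors Neurod1 is lowest and Meis2 highest at 1.18.

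Genes reported to depend on NFI or ETV1 proteins during granule neuron maturation fell in 5 of 7 cases, with 0 called higher. The NMDA receptor subunit Grin2c was at 278, 245 and 250 CPM in WT and 36, 36.3 and 41.7 CPM in EED-/- libraries. The GABA-A receptor subunit Gabra6 was at 242, 357 and 240 CPM in WT and 21.6, 14.9 and 35.6 CPM in EED-/- libraries. As with Etv1, the highest WT library was replicate 2, the highest EED-/- library replicate 3 and the lowest replicate 2. The pan-neuronal genes Snap25, Map2 and Elavl4 had this order too, so it is not particular to Etv1 and Gabra6. The axonal adhesion molecule Cntn2, the Rac exchange factor Tiam1 and Wnt7a fell 3.6-fold, 3.7-fold and 3.72-fold. The cadherin Cdh2 and the ephrin Efnb1 had log2 fold changes of 0.22 and -0.43 and were not called (adjusted p = 0.161 and 0.185 by edgeR). With upper-quartile scaling Cdh2 was called higher (0.33, adjusted p = 0.0474). Grin2c and Gabra6 are also in the list of granule neuron markers.

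Genes of progenitors and newly postmitotic granule cells moved in both directions. Of 16 listed 15 were tested, 5 fell and 4 rose, with a median log2 change of 0.13. The cyclin Ccnd2 rose from 45.3 ± 2.76 to 118 ± 14.9 CPM, Top2a from 9.4 ± 0.397 to 23.2 ± 4.65 CPM, and Ccnd1 and the proliferation marker Mki67 were the other two. Cntn2, the hedgehog co-receptor Boc, the migration gene Dcx, Ptch1 and Nhlh1 fell. With upper-quartile scaling, library size alone or without WT replicate 1, the list had 4 genes lower and 5 higher. Without EED-/- replicate 1 or 2 it had 4 lower and 3 higher. Gli1, which reads out hedgehog activity, had a log2 fold change of -0.32 and was not called (adjusted p = 0.364 by edgeR). Of 9 partners in the MYC network 7 fell and 0 rose, with a median of -0.64. The number called lower was 5 with upper-quartile scaling, library size alone or a replicate block. It was 6 with DESeq2 or no filter, and 5 to 7 with 1 library left out. Max, the partner that MYC proteins need for DNA binding, fell from 81.9 ± 8.52 to 48.8 ± 0.762 CPM, and Mxi1 and Mlxip fell 1.99-fold and 2.03-fold.

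The genes most like each member were found by the root mean square difference of mean-centred log2 CPM over the 6 libraries, among tested genes of at least 1 CPM. Nearest to Pax6 were Zic1 (0.02), the transcriptional repressor Zbtb18 (0.10) and the adenylyl cyclase Adcy1 (0.11). Nearest to Etv1 were Ptpn22, Ccdc63 and Cnpy1 (0.13 to 0.16), and nearest to Rbfox3 were Xkr7, Necab3 and Mmp24 (0.10 to 0.11). Those of Nfia were Psg16, Arhgap21 and H3f3b, those of Nfib were Rapgef4os3, Unc5c and Megf10, those of Nfic were Gse1, Pard6a and Slc9a3r2, and those of Nfix were Soga1, Kcnh3 and Cbfa2t3 (0.03 to 0.09). Gtpbp1, Otud7a and Nr1d1 were nearest to Insm1 and Mrm2, Dtx1 and Thra to Mycn (0.02 to 0.06).

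Markers of other cell types moved too, and their part in the members' changes was not tested. Markers of Bergmann glia and astrocytes, which also express NFI genes, fell in 3 of 10 cases and rose in 1. Slc1a3, Gdf10 and Hopx fell 2.80-fold, 3.57-fold and 1.94-fold, Gfap rose 2.23-fold, and the other 6 were not called. The summed levels of all 10 were 5298 to 5641 CPM in WT and 4349 to 6168 CPM in EED-/- libraries. These sums overlap between genotypes and do not show the 3 falls. In the oligodendrocyte lineage 1 of 10 fell and 3 rose, at 16737 to 20488 and 17396 to 19708 CPM. Purkinje markers were called in 0 of 8 cases by edgeR, with 3 at an unadjusted p under 0.05, 2 called by DESeq2 and 1 by limma-voom. Interneuron markers were lower in 2 and higher in 1 of 8, and unipolar brush cell markers lower in 2 of 6. All 6 skeletal muscle genes rose, from 3.22 to 3.95 CPM summed in WT to 69.7 to 111 CPM, as did all 6 meningeal genes, 4 of 6 microglial genes and 4 of 9 genes of the cerebellar nuclei and brainstem. The 5 blood genes were not called by edgeR (4 at an unadjusted p under 0.05, 1 called by DESeq2) and spanned 255 to 555 CPM in WT and 355 to 1775 CPM in EED-/- libraries, and 0 of 4 choroid plexus genes were called by edgeR, at an unadjusted p under 0.05 or by DESeq2.

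Genes annotated over the members were counted separately, and the sources used here do not state whether the counting used strand. Pax6os1, antisense to Pax6 with no shared exon bases, had 11, 13 and 25 counts in WT and 7, 6 and 3 counts in EED-/- libraries, and was called lower (log2 fold change -1.72, adjusted p = 0.0287 by edgeR). Gm11266, antisense within Nfib, was lower (log2 fold change -1.07, adjusted p = 0.00971 by edgeR) at 47 to 121 counts per library. E130114P18Rik, which shares 4 exon bases with Nfia on the opposite strand, had a log2 fold change of 0.57 (adjusted p = 0.0643). Lyl1 beside Nfix was not called (-0.16, adjusted p = 0.648). The other overlapping genes, 10 in all, had at most 6 counts in any library.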

How the data were processed

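PolyA RNA-seq libraries, 3 WT and 3 EED-/-, were grouped by the genotype in their labels. The expected counts per gene were deposited by the authors, per the labels; Salmon 1.1.0, Trimmomatic 0.36, DESeq2 1.26.0 and the build GRCm38 are listed in the submitters' processing notes. The authors' deposited table gives log2 fold changes and p-values, per the file headers. Between 22.5% and 23.6% of the values in a library were not whole (tolerance 1e-06), and all were rounded. Estimation by Salmon splits reads shared by similar genes, which can move counts between paralogues.

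Genes were filtered with filterByExpr, scaled by TMM and tested with edgeR 4.0.16 (quasi-likelihood, genotype as the only term; R 4.3.3, limma 3.58.1), with Benjamini-Hochberg adjustment over 18091 genes. CPM are scaled by library size times TMM factor, and log2 CPM carry a prior count of 2. Exact tests permuted the 6 libraries. Libraries of 19621672 to 20366041 counts give the depth, and the counting intervals of Pax1 and Pax9 are 95% exact ones that cover counting error only. Lengths and positions are from GENCODE M21, promoters from RefSeq.

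Text names the 9 members, up to 3 called genes per list with the smallest adjusted p, the members' relatives, the 3 genes most like each member and genes overlapping a member; other genes were chosen after their values were seen. A gene of the granule lineage list is not reported here. The members and the 18 lists were chosen with earlier results of these data known. The alternatives were RLE, upper-quartile and library-size scaling, no filter, a mean of at least 1 CPM, DESeq2 1.42.0, limma-voom, a replicate block and leaving out each library. The procedure was also run on simulated counts with a common dispersion and a small, balanced set of changed genes. Those settings differ from these data, so that run does not bear on the calls or the scaling here. ChIP-seq files were not used.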

Additional observations from a re-analysis of the deposited data

How the results depend on the processing

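Over 14 alternatives 7 members (Pax6, Etv1, Nfia, Nfib, Nfix, Insm1 and Rbfox3) stayed lower at an adjusted p under 0.05, and Mycn was called in 0, with log2 fold changes of -0.31 to 0.02. Nfic was called in 12: leaving out 1 library gave -0.78 to -0.49. The number of members called lower was 7 without EED-/- replicate 1 or 3 and 8 in the other alternatives. Replicate numbers were not taken as pairs. Same-number correlations of deviations were 0.03, -0.23 and -0.00125, and different-number ones ran from -0.19 to 0.20. So few values cannot decide whether the samples were paired. A fit with a replicate block left 8 members lower and called 0 relatives lower against 2. Leaving out 1 library gave 1335 to 2476 genes lower, 1205 to 2176 higher, and 0 to 2 relatives lower. It gave 4 relatives higher each time, against 5 in the main fit. The replicate block, DESeq2 and a mean of at least 1 CPM also gave 4 higher, and no filter gave 6. Upper-quartile and library-size scaling moved the median of all genes to 0.09 and 0.07 from -0.03, with 1786 lower and 2828 higher genes and 1865 lower and 2641 higher genes. With the median of the granule markers, Pax6 turned to -0.0643 and Etv1 to -0.45 relative to them, and Rbfox3 dropped from 0.65 to 0.13, Nfib from 1.51 to 0.99 and Nfix from 1.25 to 0.73. Leaving out 1 library, relative differences spanned -0.0662 to 0.26 for Etv1 against granule markers and -0.25 to 0.0617 for Mycn against pan-neuronal genes. Nfia minus Nfix spanned 0.34 to 0.75, Nfib minus Nfic -0.96 to -0.44, Nfia minus Nfic -0.57 to -0.20, Nfib minus Nfix -0.0521 to 0.51 and the Nfib share -3.73 to 0.29 percentage points. The cause was not tested. With 3 libraries per genotype, exact tests of single values cannot go below 0.1.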
